A study of Mus musculus with 4 samples.

Results

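The 8 genes described here encode the MHC class II antigen presentation machinery and its invariant chain, and were taken by symbol from a table of 15586 genes. All 8 had a row: H2-Aa, H2-Ab1 and H2-Eb1, chains of the peptide-binding class II molecules; Cd74, the invariant chain; H2-DMa and H2-DMb1, the chains of the peptide editor H2-DM; H2-Oa, the alpha chain of its inhibitor H2-O; and Ciita, the class II transactivator. They were compared between 2 libraries from TAK1 knockout mice and 2 from control mice, each library made from 200 microglia sorted from the retina by EYFP.

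The TAK1 knockout mice were 2 months old, carried a tamoxifen-inducible Cre at the Cx3cr1 locus and homozygous floxed Tak1 alleles, and received intraperitoneal tamoxifen at 75 mg/kg on 5 consecutive days. The control mice were also 2 months old, had the same Cre and floxed alleles, and received corn oil on 5 days. The genotype field of the knockout samples spells the floxed gene Tak3, while the protocol spells it Tak1. Tamoxifen was given to knockout mice only, so loss of TAK1 and exposure to the drug cannot be told apart. The Cx3cr1 locus is also active in monocytes and in some macrophages and dendritic cells, so a sort on this reporter need not hold microglia alone. No label says that the 2 libraries of a group came from separate animals, and p-values measure the spread between libraries, which may be technical.

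MHC class II molecules are alpha-beta pairs that carry peptides from the endosomal pathway to the cell surface, where CD4+ T cells read them. The invariant chain Cd74 fills the groove of the newly made pair and steers it to endosomes, where proteases trim it; H2-DM then exchanges the remaining fragment for a peptide, and H2-O holds H2-DM back. Ciita switches the genes on together through factors bound at their promoters. Resting microglia are known for low class II expression, while activated microglia, border macrophages and dendritic cells carry more of it.

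The values were FPKM, fragments scaled to transcript length and to library size, and no read counts or depths were given. FPKM summed to 823229 and 812009 in knockout 1 and 2, and to 969700 and 863652 in control 1 and 2. Genes that read under 1 FPKM in one library and at least 20 FPKM in the other library of the same group made up 16.3% of the 7823 genes tested within the knockouts and 17.1% within the controls. Map3k7, the gene of TAK1, read 0.02 and 0.08 FPKM in the knockouts, and 0.03 and 0 FPKM in the controls, so its transcript could not check the labels. Among microglia markers all 12 were in the table and none was at 0 throughout; P2ry12, a purinergic receptor gene of microglia, read 1794 and 830 FPKM in the knockouts and 569 and 790 FPKM in the controls.

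The transcripts of the peptide-binding chains and of the invariant chain stood below both controls in both knockouts, and knockout 2 stood far below knockout 1. H2-Ab1, the beta chain of the I-A molecule (chromosome 17, 34263227 to 34269418, GRCm38.p6), read 1222 FPKM in knockout 1 and 102 FPKM in knockout 2, against 3512 FPKM in control 1 and 4428 FPKM in control 2. The groups did not overlap, and the lower control was 2.87 times the higher knockout. H2-Aa, the alpha chain of the same molecule (chromosome 17, 34282744 to 34287823), read 597 and 29.8 FPKM in the knockouts and 1470.2 and 2321 FPKM in the controls, again without overlap. H2-Eb1, the beta chain of the I-E molecule (chromosome 17, 34305867 to 34316674), read 236 and 2.28 FPKM in the knockouts and 553 and 745 FPKM in the controls. For H2-Eb1, as for the I-A chains, knockout 1 lay closer to the controls than to knockout 2 in fold terms.

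Group means and their errors show the same unevenness. H2-Ab1 averaged 662 ± 792 FPKM in knockouts and 3970 ± 647 FPKM in controls (SD, n = 2 each), so the SD between the knockouts exceeded their mean. H2-Aa averaged 313 ± 401 FPKM in knockouts and 1896 ± 602 FPKM in controls, and H2-Eb1 averaged 119 ± 165 FPKM in knockouts and 649 ± 136 FPKM in controls (SD, n = 2 each). The knockout mean was 0.167 times the control mean for H2-Ab1 and 0.165 times for H2-Aa.

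**Figure D1:**
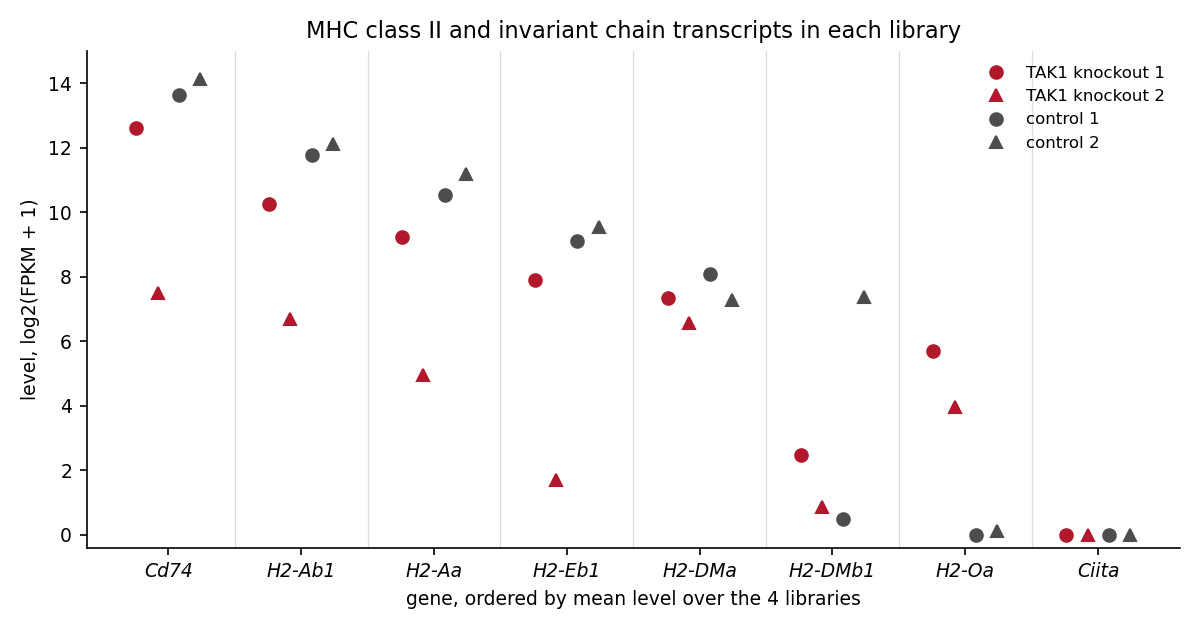
Level of each of the 8 genes as log2(FPKM + 1), with 1 point per library; knockouts are red and controls grey, with circles for replicate 1 and triangles for replicate 2. For Cd74, H2-Ab1, H2-Aa and H2-Eb1 both knockouts lie below both controls, with knockout 2 lowest, while H2-Oa lies higher in the knockouts and Ciita is at 0 in all 4 libraries.

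The promoters of these genes are known for a shared module, an X box followed by a Y box, through which Ciita acts. It is shown here for H2-Aa and H2-Eb1, which stood lower in the knockouts, for H2-DMb1, whose groups overlapped, and for H2-Oa, which stood higher. No window is printed for H2-Ab1, Cd74 or Ciita. The windows are the 150 bases before the RefSeq start site (GRCm38.p6), read 5′ to 3′ on the gene's strand, with capitals on GNAAC, a core of the X box, and on TGATTGG, the Y box with its flanking bases. They lie at chr17:34287824-34287973 on the minus strand for H2-Aa, and on the plus strand at chr17:34305717-34305866 for H2-Eb1, chr17:34153041-34153190 for H2-DMb1 and chr17:34092229-34092378 for H2-Oa.
H2-Aa: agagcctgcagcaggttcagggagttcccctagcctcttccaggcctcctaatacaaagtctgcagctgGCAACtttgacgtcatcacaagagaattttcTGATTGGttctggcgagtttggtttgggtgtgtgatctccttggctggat
H2-Eb1: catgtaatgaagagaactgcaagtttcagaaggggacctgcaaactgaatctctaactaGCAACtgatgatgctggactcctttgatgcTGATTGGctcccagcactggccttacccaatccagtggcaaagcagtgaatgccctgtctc
H2-DMb1: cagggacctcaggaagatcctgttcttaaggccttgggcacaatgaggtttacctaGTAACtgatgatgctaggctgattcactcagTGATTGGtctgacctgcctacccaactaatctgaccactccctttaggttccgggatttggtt
H2-Oa: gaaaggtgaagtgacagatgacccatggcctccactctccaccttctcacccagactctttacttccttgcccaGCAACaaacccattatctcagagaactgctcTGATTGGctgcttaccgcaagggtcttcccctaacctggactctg

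In these 4 windows 25 or 26 bases lay between GNAAC and the TGATTGG that followed it on the same strand. In H2-Aa the Y box began 50 bases before the start site, in H2-Oa 45 bases, in H2-Eb1 61 bases and in H2-DMb1 63 bases. Among all 32851 promoter windows of 250 bases in the RefSeq table, searched on both strands, 7.23% held TGATTGG, 79.6% held GNAAC, and 0.916% held GNAAC followed by TGATTGG within 40 bases on one strand. The 2 listed windows of H2-DMa held no TGATTGG. Their 150 bases nearest the start site, at chr17:34122682-34122831 and chr17:34125368-34125517, lie inside the gene's interval of 34119693 to 34139101. They do not show whether H2-DMa has the module at another start site. Outside the 8 genes, the windows of H2-Ob and H2-Eb2 also held the pair. The window of H2-DMb2, another H2-DM beta chain, held GNAAC and TGATTGG but not as the pair. The letters were chosen after these windows were seen, and a match describes the sequence only.

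Cd74, the invariant chain (chromosome 18, 60803849 to 60812652, GRCm38.p6), read 6244 FPKM in knockout 1 and 181 FPKM in knockout 2, against 12697 FPKM in control 1 and 17767 FPKM in control 2. It was the highest of the 8 genes in every library. Both knockouts lay below both controls, but knockout 1 was 34.5 times knockout 2, whereas the lower control was 2.03 times knockout 1. Ranked among all genes of a library, Cd74 was number 12 in knockout 1 and number 775 in knockout 2, and number 8 and 5 in the controls. H2-Ab1 was number 79 and 1223 in the knockouts and number 31 and 25 in the controls.

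The accessory genes of peptide editing did not follow the same pattern. H2-DMa, the alpha chain of H2-DM (chromosome 17, 34119693 to 34139101), read 161 and 94.2 FPKM in the knockouts and 269 and 155 FPKM in the controls, so knockout 1 lay above control 2. The 2 knockouts differed by 1.70 times for H2-DMa, against 12 times for H2-Ab1. H2-DMb1, a beta chain of H2-DM (chromosome 17, 34153191 to 34160229), read 4.56 and 0.81 FPKM in the knockouts and 0.41 and 163 FPKM in the controls. Its control values spanned all the others, and without control 2 the sign of its difference turned, to 1.17 on the log2 scale.

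H2-DMb1 has a near-identical neighbour, H2-DMb2, between which the counting could have split reads. H2-DMb2 read 49.4 and 0.25 FPKM in the knockouts and 41.4 and 151 FPKM in the controls. The sum of both H2-DM beta chains was 54.0 and 1.06 FPKM in the knockouts and 41.8 and 313 FPKM in the controls. As a sum they overlapped between groups, with knockout 1 above control 1 and knockout 2 the lowest of the 4 libraries.

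H2-Oa, the alpha chain of H2-O (chromosome 17, 34092379 to 34095234), stood the other way. It read 51.3 and 14.7 FPKM in the knockouts, and it was listed at 0 in control 1 and at 0.08 FPKM in control 2. Its partner chain H2-Ob read 0.10 and 0.13 FPKM in the knockouts and 26.7 and 0.13 FPKM in the controls. No library held both H2-O chains above 1 FPKM.

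Ciita (chromosome 16, 10480014 to 10531064) was listed at 0 in all 4 libraries. The FPKM of 0 does not by itself show that the gene was silent, which was not tested. Subunits of the NF-Y and RFX factors that bind class II promoters ranged widely. Nfya read at most 0.02 FPKM, Nfyc at most 0.29 FPKM and Rfx5 at most 0.20 FPKM in any library. Nfyb reached 114 FPKM in knockout 2, and Rfxap reached 35.6 FPKM in knockout 1.

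Knockout was set against control to ask what the deletion of TAK1 does to the transcripts of microglia. The test was limma's moderated test on log2(FPKM + 1), run on the 7823 genes that averaged 1 FPKM or more. Fold changes on this scale understate those of low genes. Of the 8 class II genes 7 were tested, and Ciita was not. None passed after Benjamini-Hochberg adjustment at 0.05, and of all genes tested 0% passed. The knockout minus control difference on the log2(FPKM + 1) scale was -3.48 ± 1.09 for H2-Ab1 (SE; limma adjusted p = 0.562). It was -3.77 ± 1.34 for H2-Aa (SE; limma adjusted p = 0.582) and -3.82 ± 1.49 for Cd74 (SE; limma adjusted p = 0.636).

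H2-Eb1 had the most negative difference, -4.53 ± 1.96 (SE), with limma adjusted p = 0.675. H2-Oa had the single positive one, 4.78 ± 1.66 (SE), with limma adjusted p = 0.582. H2-DMa and H2-DMb1 gave -0.73 ± 0.82 and -2.26 ± 2.57 (SE), both with limma adjusted p = 0.698. At an unadjusted p under 0.05, 3 of the 7 tested class II genes were lower in the knockouts, where 1.62% of all genes tested were; over all genes, 602 had such a p in either direction.

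For 4 of the 7 genes both knockouts were lower than both controls, where this held for 11.4% of all genes tested, and both lay above for 1, H2-Oa, where this held for 27.8%. The median difference of the 7 was -3.48, beside 0.94 over all genes tested. At an average of 100 FPKM or more there were 1177 genes, 5 of them class II, and their median was -0.11. Of those 1177 genes 26.5% had both knockouts below both controls, and 4 of the 5 class II genes did. In 4.93% of them the lower control was at least 2 times the higher knockout, a limit chosen after the values were seen, and the same 4 of the 5 class II genes met it. The smallest p that a two-sided exact permutation test can give for 2 libraries a group is 0.333.

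Relative to the median of all genes, the 4 lower genes stood at -4.41 (H2-Ab1), -4.71 (H2-Aa), -5.47 (H2-Eb1) and -4.75 (Cd74) on the log2 scale. That all-gene median was 0.94 for FPKM as deposited, 0.32 after median ratio scaling and 0.19 after quantile normalization. After median ratio scaling the relative differences were -4.68 to -5.67, and after quantile normalization they were -3.32 to -4.69. H2-Oa stood at 3.85, 4.01 and 4.02 relative to all genes under the 3 scalings, and H2-DMa at -1.67, -1.92 and -0.89. Under each of the last 2 scalings 5 class II genes had both knockouts below both controls, where 4 did for FPKM as deposited.

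Knockout 2 set most of the size of these differences. Without knockout 2 the difference was -1.69 for H2-Ab1, -1.63 for H2-Aa, -1.44 for H2-Eb1 and -1.27 for Cd74, and limma's adjusted p was 0.113 to 0.282. Without knockout 1 it was -5.26 for H2-Ab1, -5.91 for H2-Aa, -7.62 for H2-Eb1 and -6.37 for Cd74. In that fit H2-Ab1 (limma adjusted p = 0.0471) and Cd74 (limma adjusted p = 0.0484) passed, and H2-Aa and H2-Eb1 did not (limma adjusted p = 0.0683 and 0.0575). H2-Oa passed in both fits, at 3.92 without knockout 1 (limma adjusted p = 0.0469) and 5.65 without knockout 2 (limma adjusted p = 0.0453). In these fits the lone knockout is assumed to vary like the controls. All genes then gave 697 higher and 4 lower calls without knockout 1, and 1306 higher and 5 lower calls without knockout 2. Without either control no class II gene passed.

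**Figure D2:**
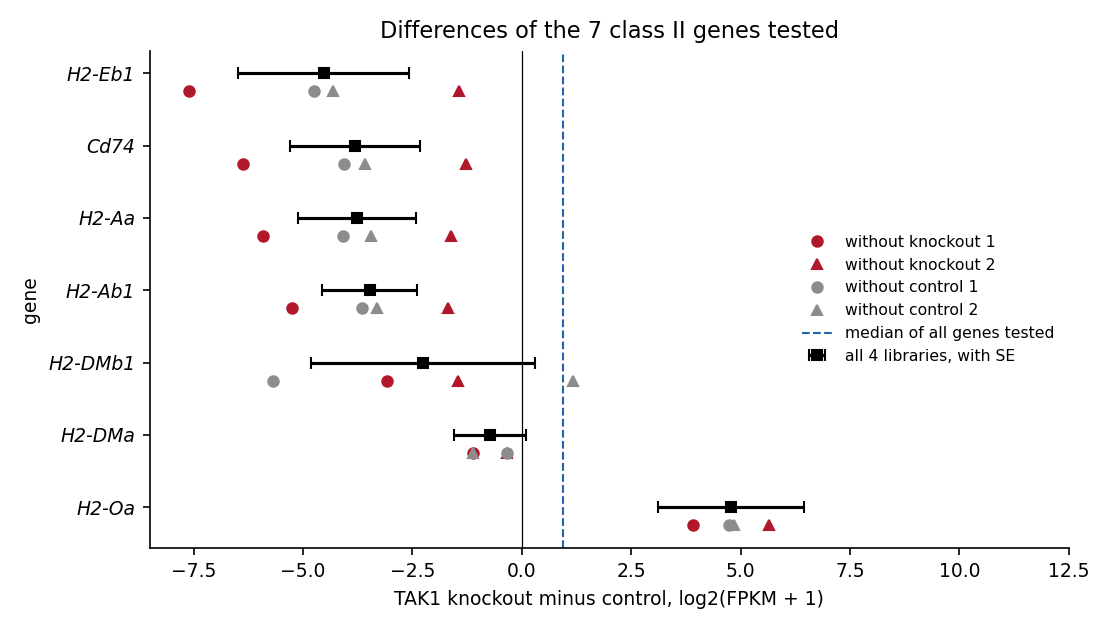
Knockout minus control difference on the log2(FPKM + 1) scale for the 7 genes tested, as black squares with SE from limma; smaller symbols give the difference with 1 library left out, and the dashed line is the median of all genes tested, 0.94. Without knockout 2 the 4 lower genes move to between -1.69 and -1.27, without knockout 1 to between -7.62 and -5.26, and H2-DMb1 changes sign without control 2.

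The gap between the knockouts was shared by the chains and the invariant chain. Knockout 1 was 12 times knockout 2 for H2-Ab1, 20.05 times for H2-Aa, 34.5 times for Cd74 and 104 times for H2-Eb1. Among the 693 tested genes with at least 200 FPKM in knockout 1, 24 (3.46%) were at least 10 times higher there than in knockout 2, and these 4 genes were among them. In the other direction, 2.24% of the 714 tested genes with at least 200 FPKM in knockout 2 were at least 10 times higher there than in knockout 1. These limits were also chosen after the values were seen.

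Ratios within a library describe the balance of the chains. The ratio of H2-Aa to H2-Ab1 was 0.489 and 0.293 in the knockouts and 0.419 and 0.524 in the controls, a far narrower range than that of either chain's own level. The ratio of Cd74 to H2-Ab1 was 5.11 and 1.78 in the knockouts and 3.62 and 4.01 in the controls. The ratio of H2-Eb1 to H2-Ab1 was 0.193 and 0.0224 in the knockouts and 0.157 and 0.168 in the controls. In all 3 ratios knockout 2 was the lowest library, and knockout 1 lay between the controls for H2-Aa and above them for Cd74 and H2-Eb1. H2-DMa to H2-Ab1 went the other way, at 0.131 and 0.926 in the knockouts and 0.0766 and 0.0350 in the controls.

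**Figure D3:**
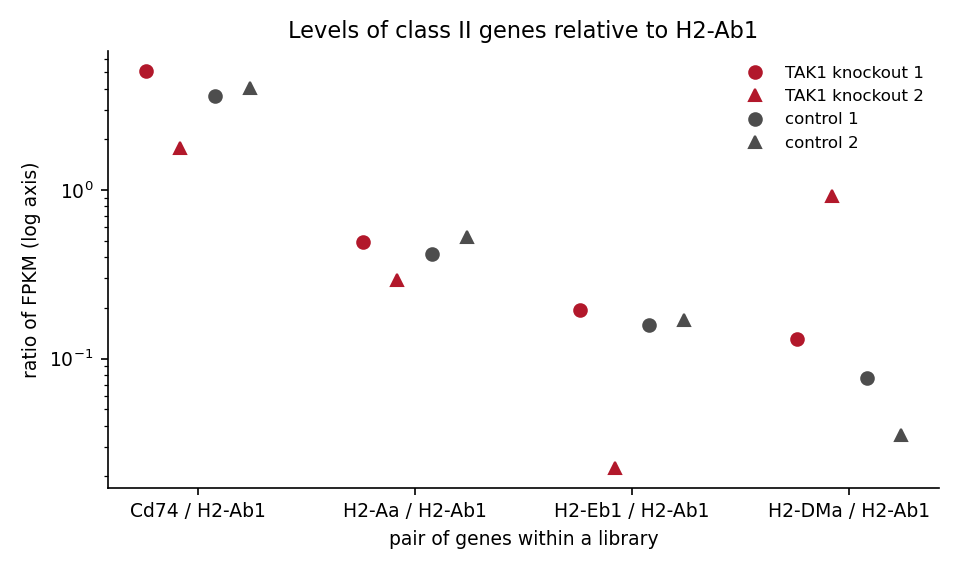
FPKM of 4 class II genes divided by that of H2-Ab1 in the same library, on a log axis, with 1 point per library. Knockout 2 is lowest for Cd74 (1.78), H2-Aa (0.293) and H2-Eb1 (0.0224) and highest for H2-DMa (0.926).

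Summed over the 8 genes, class II transcripts made up 1.03% and 0.0523% of all FPKM in the knockouts and 1.91% and 2.96% in the controls. Cd74 held 73.3% and 42.6% of that sum in the knockouts and 68.6% and 69.5% in the controls. Without Cd74, the other genes held 0.276% and 0.0300% of all FPKM in the knockouts and 0.599% and 0.905% in the controls. Both knockouts lay below both controls with and without Cd74. In such bulk samples fewer class II-expressing cells and less RNA per cell cannot be told apart.

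**Figure D4:**
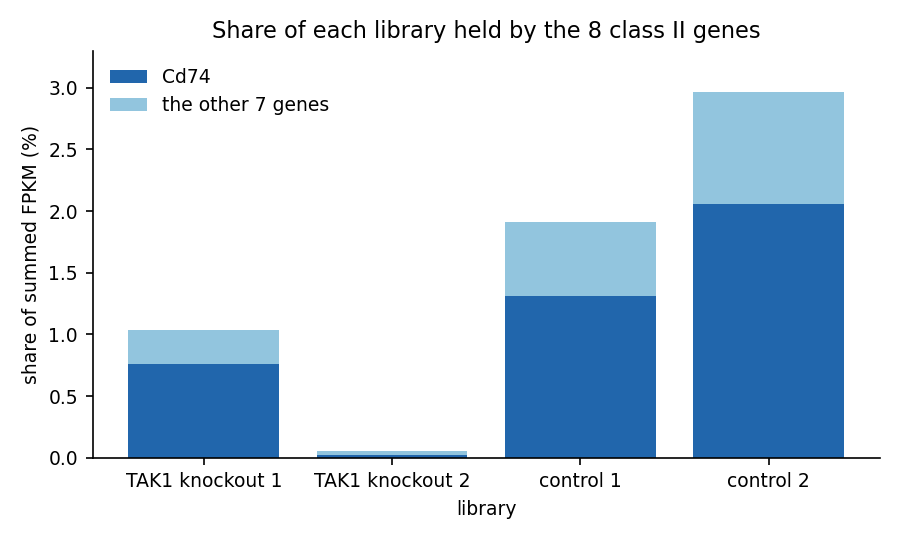
Share of the summed FPKM of each library held by Cd74 (dark) and by the other 7 genes (light), in percent. The total is 1.03% and 0.0523% in the knockouts and 1.91% and 2.96% in the controls.

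The regulators of class II transcription stood in no common direction. Of 15 listed, 11 were tested. Both knockouts were below both controls for 1 and above for 2, where this held for 11.4% and 27.8% of all genes tested. None passed (smallest limma adjusted p = 0.559), and the median difference was 0.43, beside 0.94 over all genes tested. Ifngr1, a chain of the interferon gamma receptor that leads to Ciita induction, read 828 and 29.3 FPKM in the knockouts and 107 and 128 FPKM in the controls. The groups overlapped, and knockout 1 was far above knockout 2. Nfyb, a subunit of the Y box factor NF-Y, read 49.4 and 114 FPKM in the knockouts and 0.10 and 0.21 FPKM in the controls. Jak1, a kinase of the receptor, read 53.1 and 37.2 FPKM in the knockouts and 21.7 and 0.16 FPKM in the controls, while Ifngr2, the other receptor chain, read 38.0 and 18.1 FPKM in the knockouts and 20.6 and 75.6 FPKM in the controls.

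Genes that load, trim or turn over class II went in both directions. Among the negative log2 differences were those of the class II chains H2-DMb2 (-3.34), H2-Eb2 (-2.96) and H2-Ob (-2.33), and of Ifi30 (-1.26). H2-Eb2 and H2-Ob each exceeded 1 FPKM in a single control library. Among the positive ones were Lgmn (1.41), Ctsb (0.86) and Ctss (0.44). Of 15 symbols listed, counting 2 older spellings, 12 genes were tested. Both knockouts were below both controls for 1 and above for 5, where this held for 11.4% and 27.8% of all genes tested. None passed (smallest limma adjusted p = 0.559), and the median was 0.31, beside 0.94 over all genes tested. Ctss, the protease that trims the invariant chain in myeloid cells, read 32238 and 20338 FPKM in the knockouts and 18010 and 19906 FPKM in the controls, so knockout 1 lay well above both controls and knockout 2 just above them. Lgmn, an endosomal protease of antigens and of the invariant chain, read 4459 and 3285 FPKM in the knockouts and 1350 and 1527 FPKM in the controls. Ctsb, another lysosomal protease, read 951 and 549 FPKM in the knockouts and 404 and 389 FPKM in the controls. Cd63, a tetraspanin of the compartments where class II is loaded, overlapped, at 1518 and 876 FPKM in the knockouts and 1822 and 566 FPKM in the controls.

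Costimulatory genes were few. Over all genes tested, both knockouts were below both controls for 11.4% and above for 27.8%. Of 7 costimulatory genes listed, 3 were tested, with 1 below both controls in both knockouts, none above, and none called (smallest limma adjusted p = 0.698). Cd86, the ligand of CD28, was that gene, at 122 and 259 FPKM in the knockouts and 400 and 277 FPKM in the controls. Icam1, an adhesion molecule of the T cell contact, read 26.5 and 0.11 FPKM in the knockouts and 27.2 and 0.10 FPKM in the controls. Icosl, the ligand of ICOS, read 3.51 and 0.28 FPKM in the knockouts and 1.66 and 5.38 FPKM in the controls.

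MHC class I genes, which present cytosolic peptides, had no gap of the class II kind between the knockouts in their most abundant member. Of 17 class I genes listed, 13 were tested, and none was called (smallest limma adjusted p = 0.559). Both knockouts were below both controls for 3 and above for 2, where this held for 11.4% and 27.8% of all genes tested. The median difference was -0.35, beside 0.94 over all genes tested. B2m, the class I light chain, read 7705 and 7185 FPKM in the knockouts and 12754 and 11220 FPKM in the controls. Canx, a chaperone of class I and class II assembly, read 197 and 316 FPKM in the knockouts and 561 and 441 FPKM in the controls. Pdia3, of the class I loading complex, read 483 and 347 FPKM in the knockouts and 258 and 324 FPKM in the controls. Tap2, a chain of the peptide transporter, was listed at 0 in both knockouts and read 2.47 and 19.8 FPKM in the controls, and Psmb8, of the immunoproteasome, overlapped between groups.

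Markers of other cells that can carry class II did not stand in 1 direction: the summed dendritic cell, monocyte and perivascular macrophage markers were lower in both knockouts than in both controls, and the summed B cell markers were higher. Of all genes tested, 11.4% had both knockouts below both controls and 27.8% had both above. For dendritic cells, 10 of 12 markers were in the table, of which 4 were tested, 3 with both knockouts below both controls and none above. Their summed FPKM was 40.6 to 61.5 in the knockouts and 570 to 939 in the controls. Most of the control sum was Cd209a, a C-type lectin gene of dendritic cells that arise from monocytes, at 1.19 and 2.10 FPKM in the knockouts and 503 and 886 FPKM in the controls. Xcr1 was at 0 in all 4 libraries, and Zbtb46, Ccr7 and Irf4 were under 1 FPKM in all 4. The next by mean level, Batf3, read 36.9 and 34.2 FPKM in the knockouts and 42.8 and 49.1 FPKM in the controls.

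The counts for the next 2 lists stand beside the same shares of all genes tested, 11.4% below and 27.8% above. For monocytes, 6 of 8 markers were in the table and 5 were tested, 1 with both knockouts below both controls and none above. They summed to 1.51 to 57.2 FPKM in the knockouts and 445 to 453 FPKM in the controls. The highest by mean level was Ccr2, the chemokine receptor of inflammatory monocytes, at 1.81 and 0.59 FPKM in the knockouts and 316 and 151 FPKM in the controls. Plac8 and S100a4 each exceeded 1 FPKM in some libraries only, Plac8 in control 2 at 173 FPKM, and S100a4 in knockout 1 at 49.8 FPKM and control 1 at 88.3 FPKM. For perivascular macrophages, 10 of 10 markers were in the table and 8 were tested, 2 with both knockouts below both controls and none above, and a median difference of 0.44. They summed to 190 to 840 FPKM in the knockouts and 1752 to 2223 FPKM in the controls. Ms4a7 led, at 189 and 155 FPKM in the knockouts and 1614 and 1547 FPKM in the controls, followed by Pf4, at 0.51 and 303 FPKM in the knockouts and 367 and 1.04 FPKM in the controls. Lyve1, Cbr2, F13a1 and Stab1 of this list read 61.8, 96.7, 119 and 6.64 FPKM in knockout 2 and under 1 FPKM in the other libraries.

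The monocyte sum, like the class II sum, was lower in knockout 2 than in knockout 1. Most of the monocyte sum in knockout 1 was S100a4, at 49.8 FPKM there and 0.24 FPKM in knockout 2. Ccr2 was low in both, at 1.81 and 0.59 FPKM. The perivascular macrophage sum was higher in knockout 2. The dendritic cell sum was also higher in knockout 2, an order that rested on Cd24a, at 0 FPKM in knockout 1 and 24.8 FPKM in knockout 2. Clec12a, next in the perivascular list, read 0.36 and 0.48 FPKM in the knockouts and 144 and 199 FPKM in the controls. B cell markers, of which 6 of 8 were in the table, summed to 119 to 198 FPKM in the knockouts and 0.27 to 105 FPKM in the controls, nearly all from Cd79b; Ms4a1, Cd22 and Pax5 were under 1 FPKM in every library. Rod markers, sign of photoreceptor RNA, summed to 5993 to 8716 FPKM in the knockouts and 2151 to 3110 FPKM in the controls, with 10 of 10 tested, 7 above and none below, led by Gngt1, Pdc and Sag. Microglia markers summed to 18874 to 25376 FPKM in the knockouts and 10236 to 12315 FPKM in the controls, with 7 of 12 above and 1 below. Of all genes tested, 27.8% lay above and 11.4% below. The median log2 difference was 0.92 for microglia markers and 1.70 for rod markers, beside 0.94 over all genes tested. The part of other cell types in the class II differences was not tested.

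**Figure D5:**
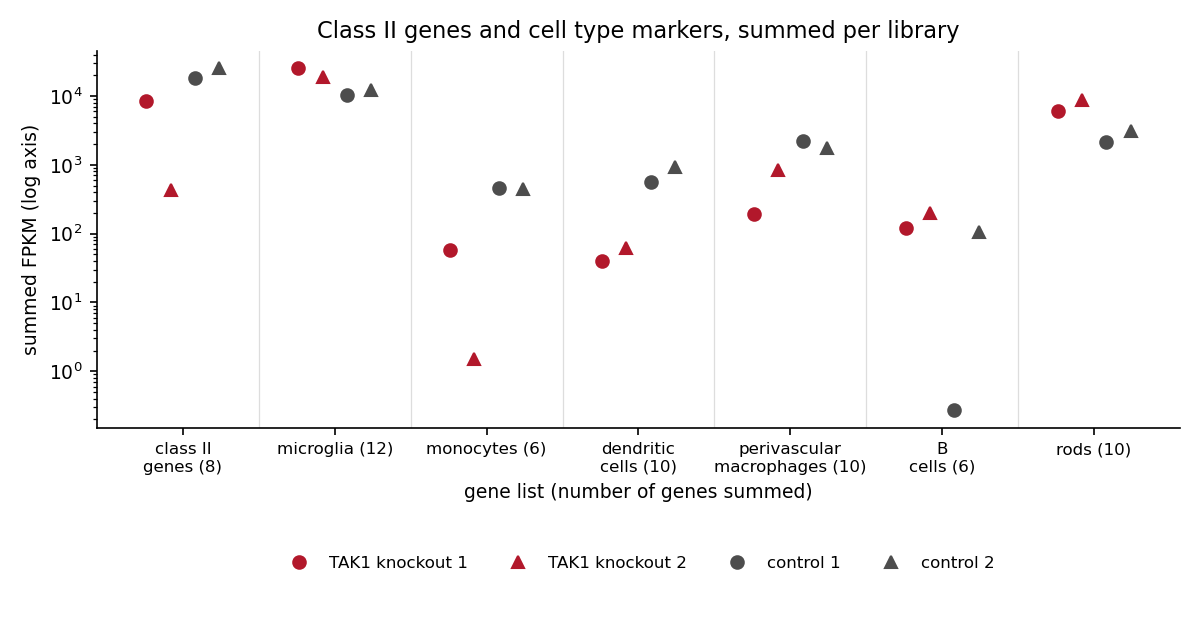
Summed FPKM per library on a log axis for the 8 class II genes and for 6 lists of cell type markers, with the number of genes summed in brackets. Class II genes, monocyte, dendritic cell and perivascular macrophage markers lie lower in both knockouts, and microglia and rod markers lie higher. Class II genes and monocyte markers are far lower in knockout 2 than in knockout 1, where S100a4 makes up most of the monocyte sum.

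Likeness of pattern was measured as the root mean square difference over the 4 libraries of log2(FPKM + 1), centred on each gene's mean, among genes that averaged 100 FPKM or more. For Cd74 the nearest of 1176 genes was H2-Aa (0.30 log2 units), followed by Tank (0.42), Clec4a1 (0.52), H2-Eb1 (0.52) and Med6 (0.54), and H2-Ab1 was number 8. For H2-Ab1 the nearest were Ttc33 (0.24), H2-Aa (0.31), Msr1 (0.42), Cd74 (0.57) and Lilrb4a (0.61), and H2-Eb1 was number 17. H2-DMa was number 142 from Cd74 and number 140 from H2-Ab1. Tank, an adaptor of the TRAF family, read 125 and 0.87 FPKM in the knockouts and 212 and 378 FPKM in the controls. Clec4a1, a myeloid C-type lectin gene, read 49.3 and 0.39 FPKM in the knockouts and 140 and 334 FPKM in the controls. Msr1, a macrophage scavenger receptor gene, read 123 and 5.95 FPKM in the knockouts and 160 and 253 FPKM in the controls. These genes share the low value of knockout 2, and 4 libraries cannot rank patterns finely.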

How the data were processed

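RNA was measured in 4 libraries of 200 sorted retinal microglia, 2 per group, as PCR-amplified SMART-Seq cDNA, per the labels' protocols. The authors deposited 1 FPKM value per gene and library, per the file headers, rounded to 2 decimals; mm10 is the build in the submitters' processing notes. Aligner, quantifier and annotation were not given in the sources used here. The values keep no read counts, so depth is unknown and no counting interval is given.

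Columns were matched to samples by title. Gene coordinates and promoters came from RefSeq tables of GRCm38.p6, which hold 15470 of the 15586 gene IDs. log2(FPKM + 1) was tested for genes that averaged 1 FPKM or more with R 4.3.3 and limma 3.58.1 (variance prior with a trend, 3.99 prior and 2 residual degrees of freedom, Benjamini-Hochberg adjustment, threshold 0.05); the code was tested on simulated data. Figures used matplotlib 3.10.9. The 8 genes and the lists of other genes were chosen with earlier results of these data known. Named genes were the 8, Map3k7, the 4 genes with the highest mean and the 2 with the smallest p of each pathway list, the 3 highest of each marker list, and the 5 nearest in pattern to Cd74 and to H2-Ab1; H2-DMb2, H2-Ob, H2-Eb2, Nfya, Nfyc, Rfx5, Lyve1, Cbr2, F13a1, Stab1 and markers near 0 were named after their values were seen. Some genes the rule names are counted in their lists but not reported here. Alternatives changed the pseudocount, the filter, the scaling, the variance prior, the replicate block and the libraries.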

Additional observations from a re-analysis of the deposited data

How the results depend on the processing

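With all 4 libraries limma called 0 genes higher and 0 lower in TAK1 knockouts, as it did under the pseudocounts of 0.1 and 5 FPKM, no filter, means of at least 5 or 100 FPKM, median ratio scaling, quantile normalization and an untrended variance; in the main version 602 genes had p under 0.05 before adjustment. The number of class II genes with both knockouts below both controls was 4, and 4 or 5 under every alternative. Leaving out 1 library gave 0 to 1306 genes called higher and 0 to 5 called lower. Of 89 values of single class II genes under the alternatives, 80 kept direction and side of the threshold, 8 newly passed it, and 1 turned: H2-DMb1, at -2.26 with all libraries, ranged from -5.69 to 1.17 with 1 library left out, and was positive without control 2. With the replicate block 15 genes were called higher and 20 lower, the lower ones including Cd74, H2-Ab1, H2-Aa and H2-Eb1. The block left 1 residual degree of freedom, and no label says that same-numbered libraries were paired. Deviations of same-numbered libraries correlated at 0.0166, which with 2 libraries a group cannot decide whether they were. The summed class II FPKM in knockouts was 0.203 times that in controls, 0.0988 times after median ratio scaling, 0.282 times after quantile normalization and 0.185 times without Cd74. The unknown depth and 2 libraries a group limit all of these values.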
